A study of Mus musculus with 39 samples.

Results

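The livers of mice were compared 24 hrs after a shorter and a longer course of repeated exposure to an aggressor, and the question was which genes responded to both courses and which responded unequally. The mice were C57BL/6J males, bought at 5 to 6 weeks of age and housed singly. Mice of the aggressor-exposed groups (AggE) spent sessions of 6 hrs a day in a small cage inside the home cage of an SJL mouse, a strain known for attacking intruders, with 3 direct contacts per session, on 5 or on 10 days. The control groups (Ctrl) had sham sessions with the same withdrawal of food but no aggressor, so the loss of food was shared by all groups. Per the paper's methods, mice also had a partition test 1 hr before the terminal bleed. In it the mouse was put into an aggressor's home cage, behind a partition that let sensory cues through but no physical contact. Each regimen had its own Ctrl group: 4 Ctrl and 5 AggE mice for the 5-day regimen and 4 Ctrl and 5 AggE mice for the 10-day regimen, 18 of the 39 mice of the series, each on an array of its own. A second label of the 5-day AggE mice carries a day count of 1 beside the stated 5 days of stress, and the 5-day reading was used here. Liver RNA was labelled with Cy-5 and hybridized together with a Cy-3-labelled reference RNA pooled from several mouse tissues or cell lines, without a dye swap, and every level below is the log2 of the liver signal over that of the reference, which can be compared between mice for 1 probe but not between probes.

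The members of the comparison are the probes of RefSeq transcripts whose Cy-5 signal was marked as well above background on at least 4 of the 18 arrays. These were 13248 of 25903 probes, which stand for 10139 of 18259 genes, 1 probe per gene, the brightest. Of the 10139 genes, 4303 were well above background on all 18 arrays and 5836 on 4 to 17 of them. At the edge of this rule, 390 genes were well above background on exactly 4 arrays, with a median difference between the regimens' changes of -0.04 on the log2 scale, and the 367 genes on exactly 3 arrays, left out, had a median of -0.03. The response of a regimen is AggE minus Ctrl, and the difference between the regimens is the 5-day response minus the 10-day response. A gene was called where its Benjamini-Hochberg adjusted p from limma, over all 25903 probes, was 0.05 or less. The mice of the regimens do not overlap, so the 5-day and the 10-day response share no sample. In whole liver, more cells of a type and more RNA per cell cannot be told apart.

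Signal differed between the groups. The share of RefSeq probes well above background was 33.3% to 40.2% in the 5-day Ctrl arrays, 21.1% to 37.0% in the 5-day AggE arrays, 39.7% to 54.5% in the 10-day Ctrl arrays and 41.9% to 54.9% in the 10-day AggE arrays. The medians were 38.9%, 30.1%, 48.4% and 49.5% in this order, and the 5-day AggE arrays had the lowest. Within that group mice 3 and 4 had the dimmest arrays of all 18, at 23.2% and 21.1%, and results that rest on them are given with and without them. No Cy-5 spot was saturated. The 18 arrays lay on 6 slides, and no slide held 24-h mice of more than 1 group, so slide and group cannot be told apart within the comparison. Mouse 5 of each AggE group lay on another slide than the other 4; the slide of the 5-day mouse also held 3 AggE mice of a later time point. The defining hepatocyte markers were present, 8 of 8 on all 18 arrays, whereas 10 of 14 neutrophil genes and 7 of 10 pancreas genes were never well above background at 24 hrs.

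The acute phase response is the switch of the liver to making plasma proteins of inflammation. It is driven by cytokines such as IL-6 and IL-1, which act in hepatocytes through STAT3, C/EBP factors and NF-κB. Serum amyloid A proteins bind to high-density lipoprotein, lipocalin 2 withholds iron from bacteria, and orosomucoids and serum amyloid P are carriers and pattern-binding proteins of plasma. Metallothioneins, small cysteine-rich proteins that bind zinc, are induced by metals through MTF1 and also by glucocorticoids and inflammation. PPARα, the receptor that turns on fatty acid oxidation during fasting, controls Cyp4a fatty acid hydroxylases such as Cyp4a10 and Cyp4a14. Glucocorticoids released under stress act on the same liver genes and on gluconeogenesis.

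The genes called in both regimens were 14, or 0.138% of the members. They were called among 274 genes of the 5-day response (2.7% of the members; 78 or 0.769% higher and 196 or 1.93% lower) and 17 genes of the 10-day response (0.168%; 16 or 0.158% higher and 1 or 0.00986% lower), so that 3 genes were called in the 10-day regimen only and 260 in the 5-day regimen only. Of the shared genes, 13 were higher in AggE mice in both regimens and 1, Me1, was lower in both. Those described here were the serum amyloids Saa1 and Saa3, the serum amyloid P component Apcs, the orosomucoid Orm3, Lcn2, the metallothioneins Mt1 and Mt2, the liver-secreted fibrinogen-like protein Fgl1, the apolipoprotein Apoa4, the cytochrome P450 Cyp2b13, the trefoil factor Tff3, the interferon-inducible Ifi27l2b and the malic enzyme Me1. With the slide as a random block the counts were 8, 6 and 5 for the 5-day response, the 10-day response and both, and the 5 genes called in both were Apcs, Ifi27l2b, Lcn2, Saa1 and Saa3. Of the 5-day calls 71.5% were lower genes, against 25% with the slide block and 27.4% on all 18 arrays, and the 5-day count was 124, 147, 173 and 121 without Ctrl mouse 1, 2, 3 and 4 of that regimen. Without the pair of dimmest arrays it was 227, with 154 of the 274 genes among them, and 16 genes were called in both regimens, 13 of the 14 among them; Me1 was not called after 5 days and Cyp2b10 was. Saa1, Saa3 and Lcn2 were called in both under all 34 alternative settings that refitted the same genes, Mt1 in 33, Apcs and Ifi27l2b in 29, Apoa4 in 28, Fgl1 and Tff3 in 27, Mt2 in 23, Orm3 in 20, Cyp2b13 in 19 and Me1 in 16. Lcn2 met the member rule through AggE arrays alone, where it is high, so its calls are given as a description. It is not among the 13 shared genes well above background in each of the 4 groups or the 10 on all 18 arrays.

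Promoter sequence of 5 of the shared genes is shown because these, metallothioneins, serum amyloids and lipocalin 2, are among the liver genes the study names at 24 hrs. Each run holds the 250 bases before the RefSeq start site in GRCm38.p6, in the direction of transcription. Capitals in Mt1 and Mt2 mark matches on either strand to TGCACNC or TGCGCNC, the forms of the core of the metal response element that MTF1 binds, and capitals in Saa1, Saa3 and Lcn2 mark matches on either strand to TTGCNNAA, a C/EBP motif.
Mt1 (chr8:94178839-94179088, plus strand): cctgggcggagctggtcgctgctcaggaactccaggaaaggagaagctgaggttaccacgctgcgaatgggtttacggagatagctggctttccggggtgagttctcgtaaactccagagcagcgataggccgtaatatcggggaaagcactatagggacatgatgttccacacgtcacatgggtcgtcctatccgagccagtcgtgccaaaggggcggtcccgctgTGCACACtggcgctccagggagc
Mt2 (chr8:94172368-94172617, plus strand): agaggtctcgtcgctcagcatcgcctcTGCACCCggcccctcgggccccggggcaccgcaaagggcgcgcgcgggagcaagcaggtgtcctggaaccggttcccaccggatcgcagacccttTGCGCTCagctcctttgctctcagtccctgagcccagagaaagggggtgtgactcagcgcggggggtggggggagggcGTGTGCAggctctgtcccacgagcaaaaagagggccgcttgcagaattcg
Saa1 (chr7:46742981-46743230, minus strand): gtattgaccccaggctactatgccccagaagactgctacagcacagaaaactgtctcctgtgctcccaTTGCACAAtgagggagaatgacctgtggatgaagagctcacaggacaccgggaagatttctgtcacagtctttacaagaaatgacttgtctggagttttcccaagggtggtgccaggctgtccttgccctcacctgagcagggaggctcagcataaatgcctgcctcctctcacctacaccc
Saa3 (chr7:46715677-46715926, minus strand): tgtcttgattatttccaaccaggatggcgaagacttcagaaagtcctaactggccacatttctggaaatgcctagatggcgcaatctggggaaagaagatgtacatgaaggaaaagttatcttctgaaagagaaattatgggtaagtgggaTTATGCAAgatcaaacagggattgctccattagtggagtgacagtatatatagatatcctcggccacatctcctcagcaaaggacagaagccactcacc
Lcn2 (chr2:32387740-32387989, minus strand): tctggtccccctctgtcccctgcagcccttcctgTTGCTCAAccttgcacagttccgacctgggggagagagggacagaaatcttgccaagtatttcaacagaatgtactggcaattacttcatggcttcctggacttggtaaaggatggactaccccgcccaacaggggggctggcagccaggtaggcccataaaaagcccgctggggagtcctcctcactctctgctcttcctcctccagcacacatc
The Mt2 run held 3 matches to the metal response core, 50 to 223 bases before the start, and the Mt1 run held 1, at 23 bases. The C/EBP motif lay 182 bases before the start in Saa1, 99 in Saa3 and 216 in Lcn2. The core, in either form, occurs in 21.4% of all 32851 promoters of this length, TTGCNNAA in 9.56% and the STAT motif TTCNNNGAA in 7.02%. Of the 14 shared genes, 10 had a promoter in the RefSeq table, and 3, 6 and 1 of them held a match to the 3 motifs in this order. A match is only a run of letters, and whether a factor was bound was not measured.

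The serum amyloids Saa1 and Saa3 rose in both regimens. Saa1 ratios were 1.87, 1.76, 2.69 and 1.38 in the 5-day Ctrl mice and 5.86, 6.24, 5.30, 5.95 and 4.97 in the 5-day AggE mice. In the 10-day regimen they were 1.61, 1.36, 1.32 and 1.51 in Ctrl and 5.43, 4.62, 4.73, 4.78 and 5.14 in AggE. Every AggE mouse of either regimen lay above every Ctrl mouse, and the changes were 3.74 (13.4-fold, adjusted p = 2.73e-06) and 3.49 (11.2-fold, adjusted p = 1.33e-05). The difference between the regimens was 0.25, with a 95% interval of -1.00 to 1.50. Saa1 and Saa2 are near-identical, so a probe of either may read both, and a second Saa1 probe gave 2.78 in the 5-day regimen (adjusted p = 0.00862) and 2.78 in the 10-day regimen, where it was not called (adjusted p = 0.0687). The Saa2 probe gave 0.95 and 1.22 and the Saa4 probe 0.20 and 0.15, of which none was called; a second Saa4 probe gave -0.25 and 0.43.

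Saa3, the serum amyloid made in macrophages as well as in hepatocytes, had the largest 5-day estimate among the serum amyloids. Its ratios were -0.81, -0.84, -0.34 and -1.25 in the 5-day Ctrl mice and 3.64, 4.13, 1.42, 4.49 and 3.40 in the 5-day AggE mice. They were -0.57, -0.97, -0.97 and -0.79 in the 10-day Ctrl mice and 3.26, 2.21, 3.13, 2.73 and 1.17 in the 10-day AggE mice. The groups did not overlap in either regimen. The change was 4.23 (18.7-fold, adjusted p = 2.4e-08) against 3.32 (10.0-fold, adjusted p = 2.54e-06), and the difference of 0.90 had an interval of -0.20 to 2.00 (unadjusted p = 0.105 by limma).

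Lcn2 had no measured baseline: none of the 8 Ctrl arrays and all 10 AggE arrays were well above background. Ratios were -0.22, -0.23, -0.25 and -0.38 in the 5-day Ctrl mice against 3.73, 3.32, 1.94, 4.75 and 2.26 in the AggE mice, and -0.39, -0.31, -0.35 and -0.33 against 3.77, 1.76, 2.44, 2.84 and 1.95 in the 10-day regimen. A fold is therefore a lower bound, at least 6.27-fold higher after 5 days (adjusted p = 4.98e-08) and at least 5.28-fold higher after 10 days (adjusted p = 2.54e-06), each taken from the AggE mean against the lowest Cy-5 signal well above background on each Ctrl array or the probe's own value where that was higher, on the loess-normalized and Aquantile-scaled Cy-5 channel. The measured Cy-5 means were 9.63 in AggE and 6.98 in Ctrl after 5 days, and 9.39 and 6.99 after 10 days, all log2.

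Transcripts of other plasma proteins were also higher in both regimens. Apcs, the main pentraxin of the mouse acute phase response, changed by 2.26 and 1.86, and Orm3 by 2.30 and 2.00. Fgl1 changed by 2.91 in the 5-day and 2.20 in the 10-day regimen, where 1 Ctrl mouse stood at 3.42 against 1.48 to 2.65 in the other 3. Orm3 was no longer called in both without 10-day Ctrl mouse 2, 3 or 4 or 10-day AggE mouse 1, 3 or 4. For all 3 genes the AggE mice lay above the Ctrl mice in both regimens, and the intervals of the differences, -0.32 to 1.13, -0.84 to 1.44 and -0.29 to 1.70 in the order Apcs, Orm3, Fgl1, all held 0.

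The metallothioneins rose from ratios well under that of the reference RNA. Mt2 ratios were -3.96, -3.81, -4.31 and -4.18 in the 5-day Ctrl mice and 0.82, -0.43, -1.03, 2.19 and -0.39 in the 5-day AggE mice. In the 10-day regimen they were -4.34, -3.49, -3.66 and -3.52 in Ctrl and 1.47, 1.06, 1.33, -0.06 and -1.84 in AggE. All AggE mice lay above all Ctrl mice, but the AggE mice spread widely (SD 1.28 and 1.39, n = 5 each). The changes were 4.30 (19.7-fold, adjusted p = 0.00361) and 4.15 (17.7-fold, adjusted p = 0.0226), the difference was 0.15 and its interval, -2.21 to 2.52, was the widest among the shared genes. Mt2 was no longer called in both without any 1 of the 10-day Ctrl mice or of 10-day AggE mice 1, 2 and 3. Mt1 changed by 3.74 and 3.14, with an interval of -0.89 to 2.08 for the difference, and its lowest 10-day AggE mouse, at -2.11, was the same mouse 5 as for Mt2. Mtf1, the gene of the metal-responsive factor, and the zinc transporters Slc30a1 and Slc39a14 were not called in either regimen by their brightest probes, with changes between -0.22 and 0.09. Second probes of Slc30a1 and Slc39a14 gave 0.21 and 0.18 after 5 days, not called. A second Mtf1 probe gave 0.37 after 5 days (adjusted p = 0.0128 by limma). It was not well above background on any array, so this is a reading at background and not a measured change.

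**Figure D1:**
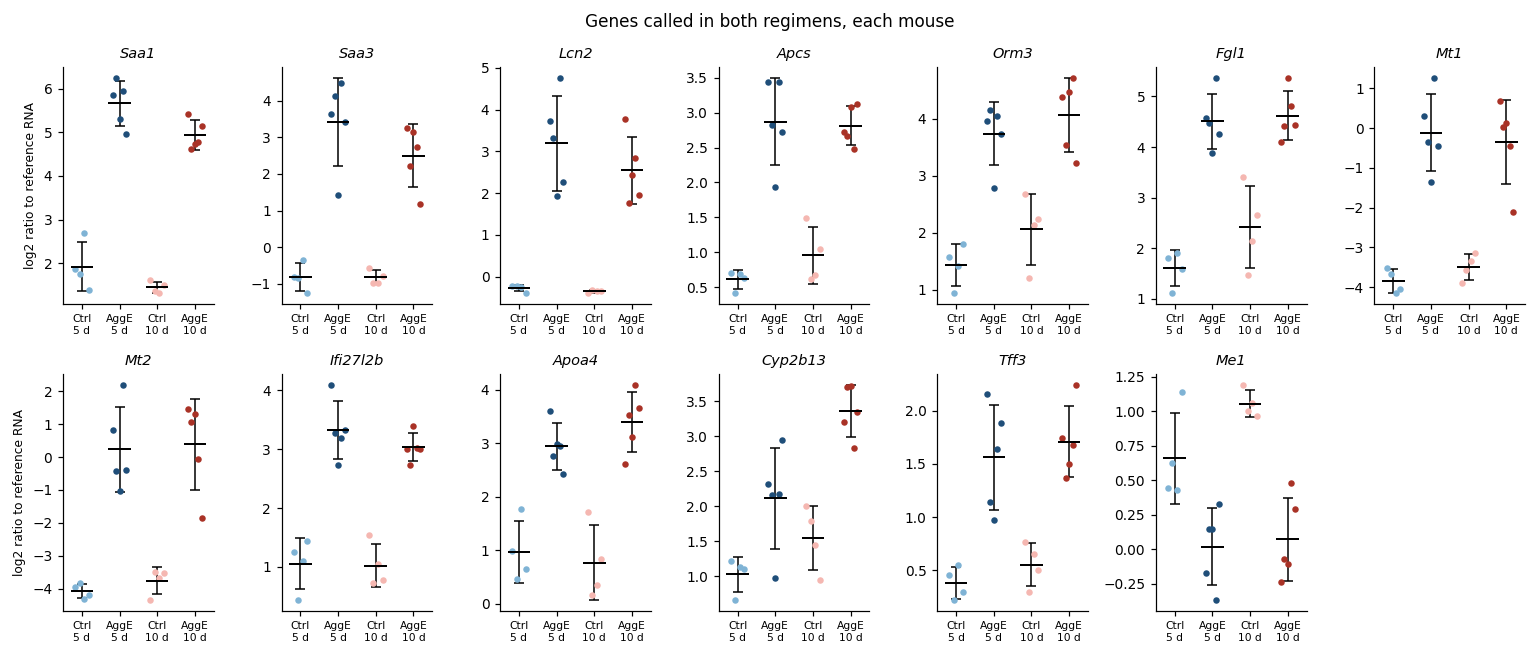
The 13 genes called in both regimens that are described here, 1 panel each, with the log2 ratio of liver to reference RNA on the y axis (scaled per panel) and the 4 groups on the x axis. Points are mice, the horizontal bar is the mean and the whiskers are 1 SD. AggE and Ctrl mice do not overlap in any panel except Cyp2b13 in the 5-day regimen.

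Apoa4 and Cyp2b13 had the larger estimate in the 10-day regimen. Apoa4, an apolipoprotein of triglyceride-rich particles, had ratios of 0.98, 0.46, 1.77 and 0.65 in the 5-day Ctrl mice and 3.60, 2.75, 2.98, 2.95 and 2.42 in the AggE mice, a change of 1.98. In the 10-day regimen they were 1.72, 0.16, 0.34 and 0.84 in Ctrl and 2.61, 3.52, 3.11, 4.09 and 3.66 in AggE, a change of 2.63, with the difference at -0.65 (interval -1.37 to 0.07). Cyp2b13, a P450 that is higher in female than in male mouse liver, changed by 1.08 and 1.81 (difference -0.73, interval -1.52 to 0.07), and was no longer called in both without 5-day Ctrl mouse 2 or 4 or 5-day AggE mouse 5. The 5-day AggE mice of Cyp2b13 overlapped with Ctrl, mouse 3 being at 0.97 beside Ctrl mice at 0.67 to 1.22, whereas in the 10-day regimen AggE mice at 2.83 to 3.72 lay above Ctrl mice at 0.95 to 2.00.

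Ifi27l2b and Tff3 had nearly the same estimate after either course. Ifi27l2b, an interferon-inducible mitochondrial protein, changed by 2.26 and 2.01 (difference 0.26, interval -0.39 to 0.90). Tff3, a secreted mucosal repair peptide, changed by 1.18 and 1.16 (interval of the difference -0.52 to 0.57). These intervals are the widest differences that the data allow for both genes at 95%, and equal changes were not shown.

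Me1, which makes NADPH for fatty acid synthesis, was the only gene called lower in both by the brightest probe. Its ratios were 0.45, 0.63, 0.43 and 1.14 in the 5-day Ctrl mice and -0.17, 0.15, 0.15, -0.37 and 0.33 in the AggE mice. They were 1.19, 1.00, 1.06 and 0.97 in the 10-day Ctrl mice and -0.23, -0.07, -0.11, 0.48 and 0.29 in the AggE mice. Me1 was no longer called in both without 5-day Ctrl mouse 1, 2 or 4, 5-day AggE mouse 1 or 4, 10-day Ctrl mouse 1 or 10-day AggE mouse 1. No AggE mouse reached the lowest Ctrl mouse of its regimen, and the gene fell by 0.64 (adjusted p = 0.0426) and by 0.98 (adjusted p = 0.00885). 

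Over the 14 shared genes, 11 had a larger size of change in the 5-day regimen, but the difference itself was called for none of them. The differences ran from -0.73 to 0.90 with a median of 0.28, the smallest unadjusted p was 0.0709 and the smallest adjusted p 0.796, and all 14 intervals held 0. These intervals reached between 0.47 and 2.37 to either side of the estimate on the log2 scale, most for Mt2. AggE and Ctrl mice did not overlap for 13 of the 14 in the 5-day regimen and for 14 in the 10-day regimen, beside 7.55% and 2.27% of all members; since the genes were chosen by these same contrasts, this is a description.

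**Figure D2:**
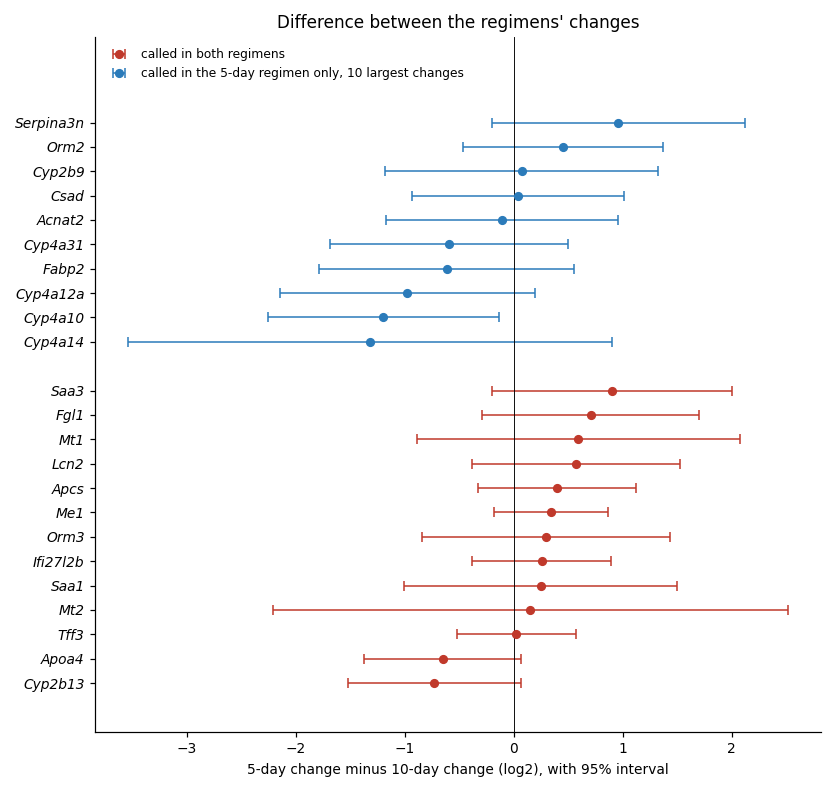
Difference between the regimens (5-day change minus 10-day change, log2, x axis) for 13 of the 14 genes called in both regimens (red) and the 10 largest changes called in the 5-day regimen only (blue), with 95% intervals from limma. Only the interval of Cyp4a10, -2.26 to -0.14, lies to 1 side of 0.

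Read across regimens, the genes of the 5-day response mostly pointed the same way after 10 days. Of the 62 called genes on all 18 arrays, 44 of 45 higher genes were also higher in the 10-day regimen, with a median of 0.91 in their own regimen and 0.56 in the other. Of the 17 lower genes 16 were also lower, with medians of -0.82 and -0.39. Among the 212 called genes on 4 to 17 arrays the 10-day values were close to 0: 29 of 33 higher genes were higher, at medians of 0.48 and 0.10, and 131 of 179 lower genes were lower, at -0.38 and -0.06. Of the lower genes on 4 to 17 arrays, 178 were called in the 5-day regimen only. No 5-day AggE array was well above background for 131 of these 178, beside 2287 of all 5836 genes on 4 to 17 arrays. These 131 genes met the member rule through groups where they are brighter. The gap between the pair of medians of the lower genes is thus fixed in part by how members were chosen, and is given as a description. Of all members 63.5% had the same sign in both regimens. The genes chosen in the other direction did not shrink: of the 22 genes on all 18 arrays that changed at least 2-fold in the 10-day regimen and passed 0.05 before adjustment, 21 had the same sign after 5 days, with a median size of 1.59 in the 10-day and 1.65 in the 5-day regimen, while the 45 genes so chosen in the 5-day regimen had medians of 1.34 and 0.79 (44 with the same sign). Over all members this rule took 52 genes (0.513%) after 5 days and 31 (0.306%) after 10 days; 1463 (14.4%) and 316 (3.12%) passed 0.05 before adjustment. A value in the regimen that chose a gene is raised by the choice, so only the value in the other regimen is free of it.

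**Figure D3:**
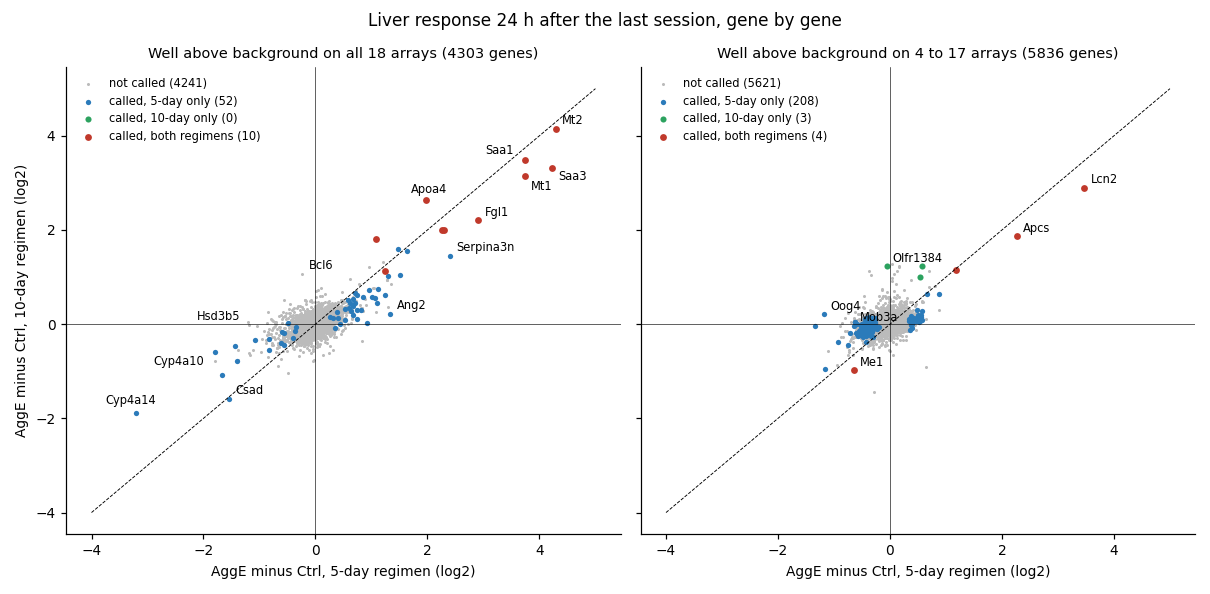
Change after the 5-day regimen (x axis) against change after the 10-day regimen (y axis), both AggE minus Ctrl in log2, 1 point per gene, for 4303 genes well above background on all 18 arrays (left) and 5836 on 4 to 17 arrays (right). The dashed line marks equal changes; the 10 shared genes on the left and 4 on the right are red, genes called in the 5-day regimen only blue, and the 3 called in the 10-day regimen only green. On the right, most blue points lie left of 0 and near 0 on the y axis.

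Across genes, the correlation of the responses was r = 0.58 (Spearman 0.39) over all 10139 members, 0.69 (0.47) on all 18 arrays and 0.41 (0.34) on 4 to 17 arrays. Genes are not independent replicates, and these values are a description. The largest unadjusted p that was called differed, 0.00161 in the 5-day and 2.48e-05 in the 10-day regimen, because the adjustment follows the number of small p-values in each. At the 5-day limit the 10-day regimen had 47 genes, 37 of them higher, and 29 genes were in both. At the 10-day limit the 5-day regimen had 44 genes. At equal limits the counts over all members were thus 274 against 47, or 44 against 17. Over the genes on all 18 arrays they were closer, 62 against 26 at the 5-day limit and 16 against 10 at the 10-day limit.

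Of the 260 genes called in the 5-day regimen only, 65 were higher and 195 lower, and 208 of them were not on all 18 arrays. Among these 208, 178 were lower. For 131 of those 178 no 5-day AggE array was well above background, beside 2287 of all 5836 genes on 4 to 17 arrays. Only a bound could be given for the AggE level of these 131 genes. For 54 of the 178 no 5-day Ctrl array was well above background. Where neither group was, not even a bound on the change could be given. Of the 30 higher genes among the 208, 15 had no 5-day Ctrl array and 7 no 5-day AggE array well above background. The 5-day AggE arrays had the lowest median share of probes well above background among the 4 groups, and the part of array brightness in the lower calls was not tested. The 52 genes on all 18 arrays were 35 higher (medians 0.74 and 0.44) and 17 lower (-0.82 and -0.39), of which 50 had the same sign in the 10-day regimen, 29 passed an unadjusted p of 0.05 there, and 40 had an interval of the difference that held 0. Over all 4303 genes on all 18 arrays, 3.30% passed 0.05 before adjustment in the 10-day regimen and 1.25% for the difference. The 52 genes were chosen by their 5-day change, which is a part of the difference.

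The largest of these was Cyp4a14, and 4 of the 10 largest were Cyp4a genes. Cyp4a14, Cyp4a10 and Cyp4a31 are on the list of PPARα targets read below, and Cyp4a12a is on the growth hormone and sex-biased list. Cyp4a14 ratios were 7.52, 7.34, 6.80 and 7.17 in the 5-day Ctrl mice and 5.73, 5.39, 2.47, 2.14 and 4.29 in the AggE mice, all lower. In the 10-day regimen Ctrl mice stood at 6.85, 7.66, 7.02 and 7.32 and AggE mice at 4.82, 6.14, 5.25, 5.42 and 5.01, also all lower. The gene fell by 3.20 after 5 days (adjusted p = 0.0178), the 10-day estimate was -1.89 (adjusted p = 1), and the difference of -1.32 had an interval of -3.54 to 0.90. Mice 3 and 4 of the 5-day AggE group, with the lowest Cyp4a14 and also the lowest Cyp4a10 and Hsd3b5, were those with the dimmest arrays. Without them the 5-day estimate of Cyp4a14 was -2.07 (adjusted p = 0.153), its 10-day estimate stayed at -1.89 and the difference was -0.19. Cyp4a10 ratios were 4.28, 3.45, 4.40 and 3.45 in the 5-day Ctrl mice, 2.05, 2.29, 1.85, 1.06 and 3.21 in the 5-day AggE mice, 3.77, 3.82, 3.44 and 4.02 in the 10-day Ctrl mice and 2.33, 3.62, 3.03, 3.27 and 3.54 in the 10-day AggE mice. The groups were apart after 5 days and overlapped after 10 days. It fell by 1.80 (adjusted p = 0.00581) with a 10-day estimate of -0.60, and the difference, -1.20 with an interval of -2.26 to -0.14, had an unadjusted p of 0.0277 and an adjusted p of 0.65. Without mice 3 and 4 the Cyp4a10 estimate was -1.37 (adjusted p = 0.0463) and the difference -0.77. A second, dimmer Cyp4a10 probe gave -0.34 and -0.42. Cyp4a31 (-1.67 and -1.08) and Cyp4a12a (-1.44 and -0.47) were likewise called after 5 days only, with intervals of the difference that held 0, and neither was called without those mice (adjusted p = 0.0743 for Cyp4a31 and 0.161 for Cyp4a12a). Cyp4a genes are so alike that a probe may read more than 1 of them.

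Genes called only after 5 days could have the same estimate after 10 days. Csad, which makes the taurine precursor hypotaurine, had ratios of 1.27, 1.49, 1.04 and 2.03 in the 5-day Ctrl mice against -0.26, -0.07, 0.15, -0.37 and 0.12 in the AggE mice, and 1.80, 2.30, 1.98 and 1.93 against -0.33, 0.23, 0.38, 0.76 and 1.06 in the 10-day regimen. The AggE mice lay below the Ctrl mice in both. The estimates were -1.54 (adjusted p = 0.00937) and -1.58 (adjusted p = 0.0588), and a second Csad probe, at -1.70 and -1.88, passed in both (adjusted p = 0.00547 and 0.00788). Cyp2b9, another P450 higher in females, gave 1.64 and 1.56, and Acnat2, a peroxisomal acyltransferase, 1.48 and 1.59. The acute phase genes Serpina3n (2.41 and 1.45) and Orm2 (1.50 and 1.05) and the intestinal-type fatty acid-binding protein Fabp2 (-1.41 and -0.79) had smaller estimates after 10 days by their brightest probes, with intervals of the difference that held 0. A second Fabp2 probe, well above background on 14 arrays, gave -0.24 and -0.39, the larger size after 10 days, and was not called. Acnat2 and Fabp2 were not called after 5 days without the pair of dimmest arrays (adjusted p = 0.0661 and 0.155).

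Smaller changes called after 5 days only, on all 18 arrays, belonged to several functions. The secreted matrix and immune protein Spp1 (1.29 and 1.03), the complement gene C4b (1.12 and 0.75) and the ferroxidase ceruloplasmin Cp (0.71 and 0.44) rose after 5 days. So did Birc5 (0.82 and 0.30), Stmn1 (1.09 and 0.44) and Lig1 (0.67 and 0.20), which serve mitosis, microtubules and DNA replication, and the lysosomal proteases Ctsl (0.75 and 0.11) and Ctsc (0.74 and 0.31). Asparagine synthetase Asns gave 0.74 and 0.63. Lower after 5 days were the esterase Ces1e (-1.08 and -0.34), the steroid reductase Srd5a1 (-0.83 and -0.31) and the retinol saturase Retsat (-0.82 and -0.55). Before adjustment, the difference between the regimens passed 0.05 for Stmn1 (0.0418), Lig1 (0.0445) and Ctsl (0.0378) among these genes, and none was called; they were chosen for naming after their values were seen.

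The genes called in the 10-day regimen only were Cyp2b10, Olfr1384 and a RefSeq transcript without a symbol, none of them on all 18 arrays. Cyp2b10, the classical target of the xenobiotic receptor CAR, had ratios of 0.48, 0.27, 0.57 and 0.59 in the 5-day Ctrl mice and 1.03, 1.26, 0.29, 0.83 and 1.62 in the AggE mice, of which 4 of 5 lay above Ctrl. In the 10-day regimen they were 1.25, 0.63, 0.94 and 0.62 in Ctrl and 1.27, 1.98, 2.27, 1.82 and 1.99 in AggE, all above Ctrl. The estimates were 0.53 (adjusted p = 0.119) and 1.00 (adjusted p = 0.0117), with an interval of -1.02 to 0.07 for the difference of -0.48. Without the pair of dimmest arrays the 5-day estimate of Cyp2b10 was 0.83 (adjusted p = 0.0103), so that it was called in both regimens. The transcript without a symbol gave 0.57 and 1.24 (difference -0.67, interval -1.32 to -0.02, adjusted p = 0.713), and without the pair of dimmest arrays it too was called in both regimens (5-day adjusted p = 0.0281).

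Olfr1384, an odorant receptor gene with no known liver function, was at background in most 5-day mice. Ratios were 0.24, 0.34, 0.56 and 0.17 in the 5-day Ctrl mice, -0.01, 0.19, 0.40, 0.16 and 0.58 in the 5-day AggE mice, 0.39, 0.08, 0.21 and 0.36 in the 10-day Ctrl mice, and 1.60, 1.53, 1.89, 2.02 and 0.42 in the 10-day AggE mice. The 10-day AggE mice 1 to 4 lay above all other mice, and mouse 5 was beside the Ctrl mice. The 10-day estimate was 1.23 (adjusted p = 0.0338, and 0.0517 in the fit without the pair of dimmest arrays). It was well above background on 1 of 9 arrays of the 5-day and on 6 of 9 arrays of the 10-day regimen, so no size is given for the 5-day change or the difference.

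The difference between the regimens was called for 2 genes, 0.0197% of the members, and both passed the member rule only through 10-day arrays, with no 5-day array well above background. Their 5-day values are therefore readings at background and not measured levels, and no gene was called for the difference among genes well above background in each of the 4 groups or on all 18 arrays. Hic2, a transcriptional repressor, had ratios of -0.28, -0.02, -0.19 and -0.06 in the 5-day Ctrl mice, -0.64, -0.66, -0.54, -0.70 and -0.63 in the 5-day AggE mice, -0.31, -0.09, -0.21 and -0.30 in the 10-day Ctrl mice and -0.26, -0.26, -0.21, -0.32 and -0.05 in the 10-day AggE mice. Only the 5-day AggE mice stood apart. The fit gave adjusted p = 0.0292 for the difference. It was well above background on 0 of the 9 arrays of the 5-day regimen, so no fold is given, and on 8 of the 9 arrays of the 10-day regimen, and a second Hic2 probe gave a difference of 0.06 (unadjusted p = 0.633 by limma). Mob3a, of the MOB kinase activators, had -0.12, -0.03, -0.11 and -0.09 in the 5-day Ctrl mice and -0.88, -0.59, -0.55, -0.69 and -0.97 in the 5-day AggE mice, beside -0.26 to 0.03 and -0.44 to 0.05 in the 10-day Ctrl and AggE mice. The fit gave adjusted p = 0.0292, and it too was well above background on 0 of 9 arrays of the 5-day regimen and on 6 of 9 of the 10-day regimen. With the slide as a random block no gene was called for the difference. Leaving out 1 mouse gave 0 to 4 calls: 0 without 5-day Ctrl mouse 2, 3 or 4, 10-day Ctrl mouse 3 or 4, or 10-day AggE mouse 1, 2 or 3, 3 without 5-day AggE mouse 3 and 4 without 10-day AggE mouse 5.

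The 15 members with the smallest p of the difference were mostly of this kind. In 14 of them no 5-day AggE array was well above background, beside 2287 of all 10139 members. These 14 met the member rule through the groups where they are brighter, and none of the 15 was on all 18 arrays. Their common sign, with the 5-day AggE reading the lower in all 15, is therefore fixed in part by how members were chosen and is given as a description, with adjusted p-values of 0.0292 to 0.281. Other probes existed for 10 of these genes, 12 probes in all. Of these, 2 met the member rule, and the rest were well above background on no array, so their values are readings at background. The differences of these 12 probes ran from -0.15 to 0.24, 3 of them negative, none of the negative ones with an unadjusted p of 0.05 or less and 1 of the positive ones, of Atp8a1 and not well above background on any array. They include Crkl, an adaptor of growth factor signalling, Pik3cd, a phosphoinositide kinase of leukocytes, Ring1, a Polycomb ubiquitin ligase, and Oog4, an oocyte gene. Oog4 was the brightest, on 17 arrays, at 0.41 to 1.71 in the 5-day AggE mice against 1.79 to 2.20 in all Ctrl mice and 1.80 to 2.19 in the 10-day AggE mice. Its second probe gave a difference of 0.07 but was not well above background on any array.

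Over all members, 417 genes (4.11%) had a difference with an unadjusted p of 0.05 or less, 339 of them negative. This share changed with signal: 9.06% of genes on 4 to 7 arrays, 8.32% on 8 to 12, 3.71% on 13 to 17 and 1.25% on all 18 arrays. Negative differences made up 83.8%, 84.9%, 90.7% and 48.1% of these. Genes with measured signal in every mouse thus rarely passed, and as often with a positive as with a negative difference. The median difference over all members was -0.04.

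Between the Ctrl groups no gene was called by limma (721 genes, or 7.11%, at an unadjusted p of 0.05 or less), and between the AggE groups 578 genes were called (5.70%), 148 higher and 430 lower after 5 days. The direct comparison of AggE groups does not correct for the Ctrl groups, which differed in the number of sham sessions and in slide. On all 18 arrays it held 100 calls, 60 higher and 40 lower after 5 days.

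The genes whose difference was at least 2-fold and passed 0.05 before adjustment were 8 (0.0789%), of which 5 were on all 18 arrays: Cyp4a10, described above, Bcl6, Hsd3b5, Inhbe and Ang2. None had an adjusted p under 0.599 for the difference among these 5. Bcl6, a transcriptional repressor of growth hormone and lipid genes, gave -0.23 after 5 days and 1.07 after 10 days, and neither was called. Its ratios were 2.01, 1.46, 2.25 and 0.83 in the 5-day Ctrl mice, 0.94, 0.90, 1.58, 2.60 and 1.03 in the 5-day AggE mice, -0.09, 1.29, 1.01 and 0.81 in the 10-day Ctrl mice and 2.47, 0.81, 1.71, 2.32 and 1.80 in the 10-day AggE mice. The groups overlapped in both regimens.

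Hsd3b5, a steroid reductase of male liver, gave -1.19 (adjusted p = 0.0953) and -0.01, with a difference of -1.18 (interval -2.34 to -0.02). Its 5-day AggE mice were 3.27, 2.95, 1.65, 1.58 and 3.29 against 3.48 to 4.05 in Ctrl, and without mice 3 and 4 the estimate was -0.57 and the difference -0.56. Inhbe, a liver-secreted subunit of activin E, gave -0.84 and 0.26, with a difference of -1.11 (interval -2.15 to -0.07). Its 10-day AggE mice were 1.01, 1.71, 1.53, 1.62 and 3.22, and the Ctrl groups stood apart from each other, at 2.40 to 3.00 and 1.32 to 1.85. Ang2, an angiogenin-family ribonuclease, gave 1.34 (adjusted p = 0.0419) and 0.22, with a difference of 1.12 (interval 0.04 to 2.20). Here too the Ctrl groups stood apart, at 0.68 to 1.57 after 5 days and 2.51 to 3.58 after 10 days, and 1 of the 10-day AggE mice was at 1.57 with the others at 3.41 to 3.71.

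**Figure D4:**
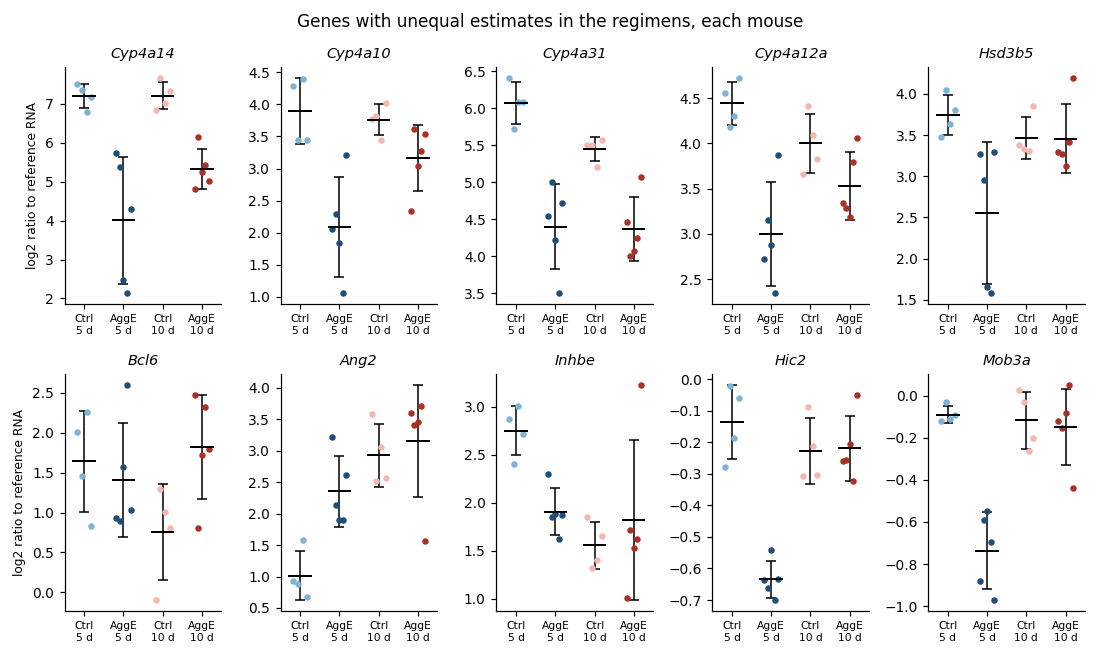
Log2 ratio of liver to reference RNA (y axis, scaled per panel) in the 4 groups (x axis) for 10 genes with unequal estimates in the regimens. Points are mice, horizontal bars means and whiskers 1 SD. Hic2 and Mob3a show only the 5-day AggE mice apart, with no 5-day array well above background; for Inhbe and Ang2 the 2 Ctrl groups themselves differ in level.

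Gene lists of liver functions were then read in both regimens, by counts and medians beside the members' medians of -0.04 after 5 days and 0.00 after 10 days. The acute phase list (28 members) had medians of 0.47 and 0.29 and the largest number of calls, 8 higher after 5 days and 5 after 10 days, beside 0.769% and 0.158% of all members; 22 members were above 0 in each regimen, beside 39.7% of all members after 5 days and 50.3% after 10 days, and 26 had the same sign. The acute phase medians ran from 0.15 to 0.87 and from 0.07 to 0.64 over 34 alternative settings. Its 3 genes called only after 5 days were Serpina3n, Orm2 and Cp. The inter-alpha-trypsin inhibitor chain Itih3 gave 1.29 and 0.37, and Lrg1 0.90 and 0.40, while haptoglobin (Hp, -0.17 and -0.26) and hemopexin (Hpx, 0.10 and 0.09), acute phase proteins of heme and hemoglobin, had small values. No gene of the list was called for the difference, of which the median was 0.17.

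The PPARα targets (32 members) had medians of -0.18 after 5 days and -0.19 after 10 days, with 4 called lower after 5 days, Cyp4a10, Cyp4a14, Cyp4a31 and the acyl-CoA thioesterase Acot1 (-1.16 and -0.95), beside 1.93% of all members, and none after 10 days. Of these, Cyp4a14 and Cyp4a31 were not called without the pair of dimmest arrays. Ehhadh, of peroxisomal fatty acid oxidation, gave -1.11 and -0.55 with no call, while Cpt1a, the gate of mitochondrial fatty acid oxidation, gave 0.04 and 0.06. The fatty acid synthesis list (16 members) had medians of -0.29 and -0.18. In it Me1 was called lower in both and no other gene was called, beside 1.93% and 0.00986% of all members called lower. Fasn, the synthase itself, gave -0.58 and -0.57. The median of this list turned to 0.05 after 5 days with the signals processed by Feature Extraction.

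The NRF2 and conjugation list (25 members) had medians of -0.36 and -0.28 with no gene called in either regimen, and 23 of its members had the same sign in both. Over the alternative settings these medians ran from -0.72 to -0.09 and from -0.65 to -0.20. The glutathione transferases Gstm1 (-0.66 and -0.88) and Gsta2 (-0.89 and -0.40) and the glucuronosyltransferase Ugt2b1 (-0.77 and -0.28) were among its lower values. The heat shock list (14 members) had medians of -0.33 and -0.15 with no call, led by Hspb1 at -1.18 and -0.66. Over the alternative settings its medians ran from -0.48 to -0.24 and from -0.32 to 0.08. All 14 members of the cell cycle list were above 0 in both regimens, beside 39.7% and 50.3% of all members, at medians of 0.25 and 0.12. Birc5 alone was called, higher after 5 days, beside 0.769% of all members. The licensing factor Mcm6 gave 0.65 and 0.11 and the mitotic activator Cdc20 0.64 and 0.25.

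**Figure D5:**
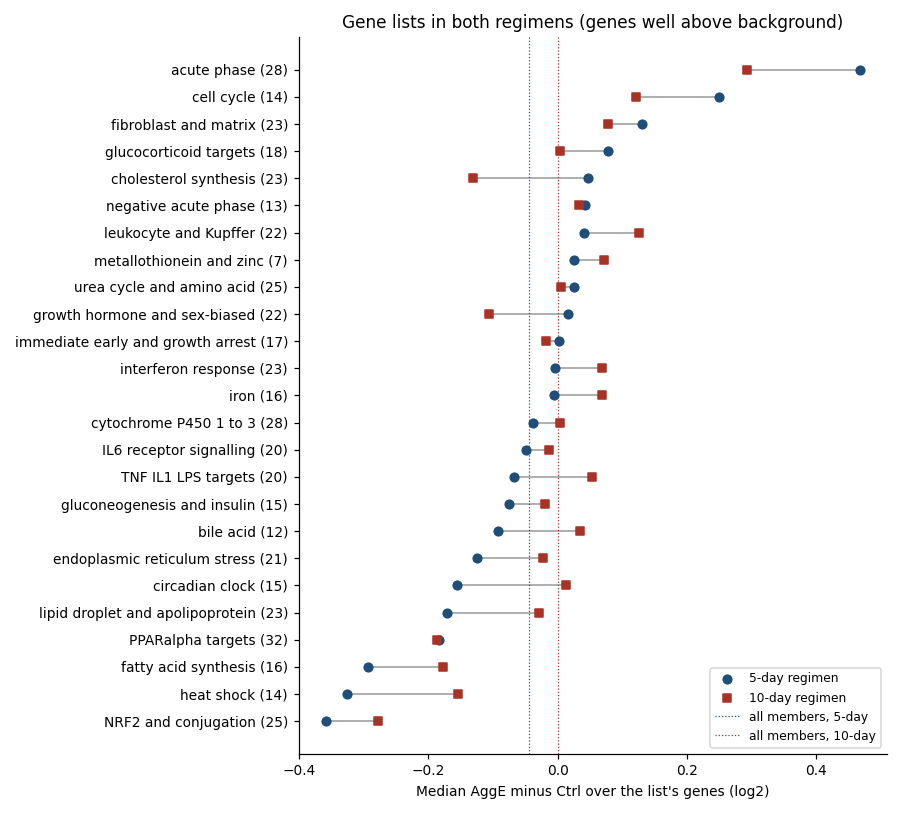
Median change (AggE minus Ctrl, log2, x axis) of the 25 lists of gene functions with 5 or more members, cell type markers left out, in the 5-day (blue circles) and 10-day regimen (red squares), with the number of member genes in parentheses. Dotted lines mark the medians over all 10139 members. Among these lists, acute phase stands farthest to the right in both regimens, at 0.47 and 0.29, and the NRF2 and conjugation list farthest to the left, at -0.36 and -0.28.

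The remaining lists named here held few or no calls. The cholesterol synthesis genes (23 members) had 0.05 and -0.13. The first kept its sign in 28 of 34 alternative settings and was -0.11 without normalization between arrays. Hmgcs1, an early enzyme of the pathway, gave 0.14 and -0.66 with no call. The circadian genes (15 members) had -0.16 and 0.01, with Per2 at -0.68 and -0.21 and no call. The growth hormone and sex-biased list (22 members) had 0.02 and -0.11, of which the first kept its sign in 14 of 34 alternative settings. In it Cyp2b9 was called higher and Cyp4a12a lower after 5 days, beside 0.769% and 1.93% of all members, and none was called after 10 days. The lists for glucocorticoid targets (18 members, 0.08 and 0.00), interferon response (23 members, -0.00 and 0.07) and gluconeogenesis (15 members, -0.08 and -0.02) held no call in either regimen. Over the 34 settings the glucocorticoid medians kept their sign in 29 after 5 days and 22 after 10 days, the interferon medians in 16 and 34, and the gluconeogenesis medians in 33 and 32, the last running from -0.80 to 0.23 and from -0.44 to 0.01. The P450 families 1 to 3 (28 members) had -0.04 and 0.00, with 2 called higher in each regimen, where 0.769% and 0.158% of all members were called higher. Their medians ran from -0.81 to 0.22 and from -0.65 to 0.05 over the settings, with the same sign in 28 and 18 of 34. The targets of TNF, IL1 and lipopolysaccharide (20 members) had -0.07 and 0.05, with Birc3 called lower after 5 days at -0.28, beside 1.93% of all members.

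Markers of other cells were read because whole liver was measured. All 6 Kupffer cell markers had a negative difference, as had 59.6% of all members, with medians of 0.09 after 5 days and 0.40 after 10 days. Marco, a macrophage scavenger receptor, gave 1.20 and 1.31, Csf1r 0.01 and 0.35, and Clec4f -0.16 and 0.43. None was called, and Csf1r had an unadjusted p of 0.0334 for the difference of -0.34. The summed Cy-5 level of the list, log2, was 12.0 to 12.4 in 5-day Ctrl, 12.0 to 12.4 in 5-day AggE, 11.2 to 12.4 in 10-day Ctrl and 11.8 to 12.6 in 10-day AggE mice, so the groups overlapped. The 2 neutrophil genes that met the member rule had medians of 0.38 and 0.36, neither called. Of the 14 neutrophil genes on the array 10 were never well above background, so the sum of this list is mostly a reading of background. It was 10.54 to 10.57 in 5-day Ctrl and 10.62 to 10.89 in 5-day AggE mice, which did not overlap, and 10.46 to 10.55 and 10.51 to 10.56 in the 10-day groups, which did. Of the 3 cholangiocyte markers that were members, Spp1 gave 1.29 and 1.03 and was called after 5 days, Krt19 gave 0.34 and 0.08, and Sox9 gave -0.30, with every 5-day AggE mouse below every Ctrl mouse, and 0.03. The sum of the 6 markers was 10.26 to 10.53 and 10.40 to 11.57 in the 5-day Ctrl and AggE mice, which overlapped, and 10.12 to 10.52 and 10.56 to 11.28 in the 10-day groups, which did not. Of these 6 markers 3 were never well above background at 24 hrs, and only Spp1 was on all 18 arrays. Of the skeletal muscle markers 7 of 7 were members but none was on all 18 arrays, with medians of -0.13 and 0.57 and sums of 9.96 to 13.4, 9.78 to 11.1, 10.5 to 12.9 and 10.6 to 13.0 in the groups in the same order. The 5-day median ran from -0.40 to 1.82 over 34 alternative settings and kept its sign in 25 of them. The part of these cells in the results was not tested.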

How the data were processed

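Liver RNA of 39 mice was hybridized by the authors to 2-colour Agilent arrays, liver in Cy-5 and a common reference in Cy-3. The deposited scanner files, made by Feature Extraction 11.5.1.1 per the file headers, hold median spot and local background intensities, the software's processed signals, marks for spots well above background, saturated or outlying, and log10 ratios; the authors' deposited series table holds log10 ratios too, with 0 where no ratio was given. From the median intensities, background was corrected by normexp (offset 50), each array by loess with control spots at weight 0, and the 39 arrays by quantiles between arrays; outlier spots were dropped and the spots of a probe averaged. limma 3.58.1 in R 4.3.3 (statmod 1.5.0, and the data.table package, version 1.17.8) was fitted to the 8 groups of the series, with Benjamini-Hochberg adjustment over the 25903 RefSeq probes of the 41174 on the array, of which 24375 had a symbol in the RefSeq table. Intervals are 95% limits from the fit. Groups came from the sample labels. The number of mice limits the precision. The members and the gene lists were chosen with earlier results of these data known. Named genes were, by rule, the 15 with the smallest p of the difference, those called in both regimens, the 10 largest called in 1 regimen only, the serum amyloids, metallothioneins and Lcn2, and in each list up to 6 with the largest difference. The genes with a 2-fold difference, the smaller 5-day-only genes and further list genes named for their function were chosen after their values were seen. The pipeline was tested on simulated data. Alternatives changed background correction, normalization, filters, samples and the fit. No per-sample column was left out. Results of some genes are not reported here, among them 1 gene called in both regimens.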

Additional observations from a re-analysis of the deposited data

Results flagged for a closer look

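Among 49 named genes in the 4 groups, 196 sets of mice, 11 mice in 9 genes stood apart from the rest of their group by Dixon's criterion at 95%, which chance gives in about 1 in 20 sets. In the 5-day Ctrl group these were mouse 3 for Tecpr2 (0.28, log2 ratio to the reference as in all that follow) and Orm2 (6.76) and mouse 4 for Lcn2 (-0.38). In the 5-day AggE group it was mouse 5 for a RefSeq transcript without a symbol (1.01). In the 10-day Ctrl group they were mouse 3 for Napb (-0.26), mouse 4 for Hsd3b5 (3.85) and mouse 1 for Saa4 (5.15). In the 10-day AggE group they were mouse 5 for Hps1 (0.0332), Ang2 (1.57) and Hsd3b5 (4.19) and mouse 1 for Saa4 (5.59). Mouse 5 of that group was the only array of the series on its slide.

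The test of the difference between the regimens passed for Hic2 (-0.51) and Mob3a (-0.61), but neither probe was well above background on any 5-day array, so these are differences between readings at background and not measured changes.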

How the results depend on the processing

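Named genes were refitted under 34 alternatives, and counts also over other sets of genes; 3 alternatives were chosen after seeing the data (genes well above background in each of the 4 groups, leaving out the AggE mice alone of their group on a slide, and leaving out the pair of dimmest arrays); Hic2 and Mob3a kept their sign in all 34 and were called in 13 and 10. Counts are given for the 5-day response (main 274), the 10-day response (17), both (14), the difference (2) and a 2-fold difference at an unadjusted p of 0.05 or less (8), where they moved by over 1.5 times. With the slide as a random block they were 8, 6, 5, 0 and 2. With no normalization between arrays they were 15, 7, 6, 0 and 3. Without background subtraction the 5-day count was 557, the difference 1 and the 2-fold difference 69; with an offset of 16, 543, 4 and 27. With an offset of 0 the 10-day count was 6, both 6, the difference 1 and the 2-fold difference 327; with the software's processed signals, 10, 7, 1 and 597. Cy-5 alone gave 522, 26, 24, 0 and 3. The series table gave 163 after 5 days, 0 for the difference and 484 for the 2-fold difference. Array weights gave 706, 66, 31, 47 and 20. All RefSeq genes gave 597 after 5 days and 6 for the difference, genes on all 18 arrays 62, 10 after 10 days, 0 and 5, a fit of member probes alone 168 and 0, and genes well above background in each group 126 and 0. Over all RefSeq genes 4 of the 6 differences called were positive, all 4 of genes that did not meet the member rule. Of the 1175 differences that passed 0.05 before adjustment there, 651 were positive. The difference held 0 calls also with the 24-h arrays normalized together and with the 4 groups fitted alone, and 5 without the AggE mice alone of their group on a slide. Without the pair of dimmest arrays the counts were 227, 17, 16, 3 and 6. Leaving out 1 mouse gave 121 to 313 calls after 5 days, 12 to 19 after 10 days, 11 to 17 in both, 0 to 4 for the difference and 4 to 15 for the 2-fold difference; the last was 4 without 10-day Ctrl mouse 3, 5 without 5-day AggE mouse 4 and 15 without 5-day AggE mouse 5.

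Lower genes made up 71.5% of the 5-day calls in the main setting, 91.6% and 86% with offsets of 0 and 16, 81.1% without background subtraction, 51.6% in genes measured in each group, 48.7% over all RefSeq genes, 40% without normalization between arrays, 27.4% on all 18 arrays and 25% with the slide block. The median 5-day change of all members moved from -0.04 to -0.15 with the processed signals or the series table. A RefSeq transcript without a symbol, at -0.44 after 5 days, turned to 0.211 in the series table. Replicate numbers did not pair the mice: correlations of 25 same-numbered pairs ran from -0.232 to 0.291, and 4 of 18 arrays correlated best with their own number. The fit with the replicate block gave 724 calls after 5 days, 15 after 10 days, 15 in both and 0 for the difference.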
